A study of Mus musculus with 12 samples.

Results

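This account describes what lipopolysaccharide (LPS), a bacterial cell wall component, did to the messenger RNA of BV-2 cells when given alone. The comparison took the 3 arrays of the group labelled LPS and the 3 arrays of the group labelled untreated, by their treatment labels, which is 6 of the 12 arrays of the series. BV-2 is an immortalised mouse microglial line, made with a retrovirus that carries the v-raf and v-myc oncogenes, so every group consists of 1 line of dividing cells without neurons or astrocytes around them. LPS was given at 100 ng/ml for 6 h, and the untreated cells had no agent; the labels name no vehicle. The other 6 arrays, of cells given curcumin with or without LPS, entered alternative fits only. Each of the 3 slides carried 1 array of every group, and the replicate number of an array was that of its slide in the scanner headers. The labels do not say whether replicates were separate cultures, so the p-values measure the spread between these arrays only, and each group took the same position on every slide, so that position and treatment cannot be told apart.

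LPS is sensed by Toll-like receptor 4 with the co-receptor CD14. The receptor signals through one adaptor route to NF-kB and MAP kinases, which switch on cytokine and acute phase genes, and through another to IRF3 and type I interferon, whose own receptor then switches on interferon-stimulated genes through STAT and IRF factors. In microglia and macrophages the same stimulus is known to change receptors, lipid metabolism and cell division as well, and genes of these kinds are the subject here.

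The arrays were alike in quality, with 58.0 to 61.2% of spots well above background and no saturated spot. Over the 22870 probes above background on all 6 arrays, correlations between arrays were 0.990 to 0.994 within the LPS group, 0.991 to 0.997 within the untreated group and 0.968 to 0.982 between the groups. A level below is the log2 signal of a gene's brightest probe minus the 75th percentile of its array, a difference is LPS minus untreated on that scale, and values follow the order of slides 1, 2 and 3. Testing asked for a probe that the scanner software found well above background throughout the LPS arrays or throughout the untreated arrays, which left 18243 genes, and a gene was called at an adjusted p under 0.05 (limma with the slide as a block, Benjamini-Hochberg over all genes tested). No level of one probe is set against that of another.

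LPS changed genes in both directions, with the larger steps upward. In all, 4556 of the 18243 genes tested were called (25.0%), of which 2384 were higher (13.1%) and 2172 lower (11.9%). At 2-fold or more, 1512 genes were called (8.29%), 1034 of them higher (5.67%) and 478 lower (2.62%). The 3 LPS arrays lay apart from the 3 untreated arrays in 6140 genes (33.7%), called or not. At 4-fold or more 476 genes were called higher and 67 lower. The balance of directions depended on the scaling: relative to the spike-in probes it was 1251 higher and 2789 lower, with a median difference of -0.24 over all genes, and relative to the array median it was 1859 higher and 3849 lower, with a median of -0.14. Calls that held on all 5 scalings numbered 1175 higher (6.44%) and 2071 lower (11.4%). Without slide 2 the fit called 2272 genes, and without the slide block 2531. Normexp background correction, which adds an offset of 50 to each signal, shrank the differences of dim genes. It moved 34 of the 35 named and measured genes whose lower group mean was under a level of -4 by over 1.5-fold, and 10 of the other 127, and its value stands beside each such difference given below. In the plot of differences against mean level the called genes lie both above and below the line of no difference, and the largest steps are upward.

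**Figure D1:**
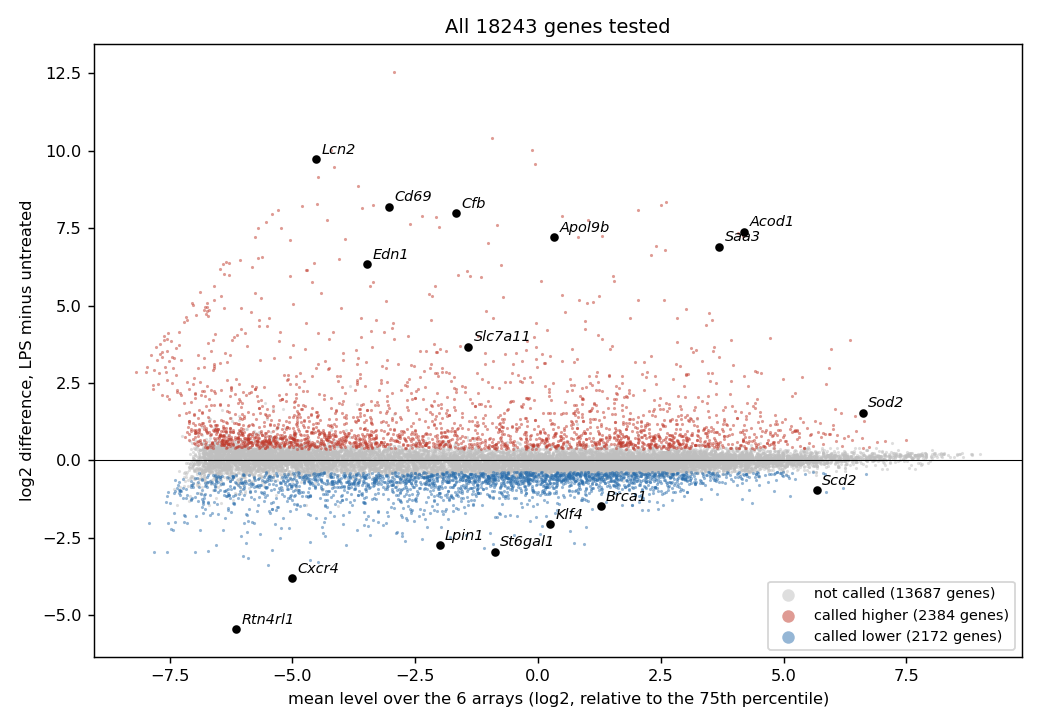
Log2 difference, LPS minus untreated, of each of the 18243 genes tested (vertical axis) against its mean level over the 6 arrays (horizontal axis, log2 relative to the array's 75th percentile). Red points were called higher (2384), blue points lower (2172) and grey points were not called; named genes in black run from Lcn2 at 9.72 to Rtn4rl1 at -5.44, and both of these lay below background in 1 group, so that their fitted differences are not measured folds.

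The 4 classic lists of the LPS response serve only as a reference point. All 23 tested cytokines and mediators, all 17 tested chemokines and all 44 tested interferon-stimulated genes of those lists were called higher, beside 13.1% of all genes. Their median differences were 4.49, 3.90 and 4.84. On the array were 27, 21 and 45 members of these 3 lists. A member that reached testing through the LPS group alone could only be higher. The interferon-stimulated genes had medians of 4.99, 4.56 and 5.04 on slides 1, 2 and 3, and the cytokines 4.92, 4.63 and 3.91. Among NF-kB subunits and feedback genes 17 of 22 were called higher and none lower. Acod1, the enzyme that makes itaconate, read 8.14, 7.84 and 7.69 in LPS and 0.96, -0.04 and 0.59 in untreated cells. All 3 LPS levels of Acod1 lay above all untreated levels, and the difference was 7.39 ± 0.18 (SE, adjusted p = 6.32e-06). Genes outside these lists follow. Each count of list members in the main fit is to be read beside 13.1% called higher and 11.9% called lower over all genes tested. Under other settings the calls over all genes changed too. Without slide 2, for example, they numbered 1410 higher and 862 lower.

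Among genes outside the classic lists, the steepest measured rises belonged to an activation antigen, a complement component, a transcription factor and an apolipoprotein L gene. Cd69, a lectin that marks activated leukocytes and holds back their exit from tissue, read 1.95, 0.99 and 0.27 in LPS and -7.11, -7.18 and -7.08 in untreated cells. The groups lay far apart and the difference was 8.19 ± 0.31 (SE, adjusted p = 3.36e-05; 4.94 with normexp). Cfb, complement factor B of the alternative pathway, read 3.15, 2.21 and 1.64 against -5.61, -5.75 and -5.63, again without overlap, a difference of 7.99 ± 0.27 (SE, adjusted p = 2.26e-05; 5.74 with normexp). For Batf2, a bZIP factor that partners other factors in macrophage activation, the levels were 2.10, 0.73 and 0.79 in LPS and -6.10, -6.43 and -6.74 in untreated cells. Its slide 1 level under LPS was the highest of the 3, and the difference was 7.63 ± 0.20 (SE, adjusted p = 8.93e-06; 4.98 with normexp). Apol9b, of an interferon-inducible apolipoprotein L family, read 4.16, 3.98 and 3.65 against -3.36, -3.27 and -3.23. Its LPS arrays were all high and its untreated arrays close together, with a difference of 7.21 ± 0.15 (SE, adjusted p = 4.56e-06; 6.48 with normexp).

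Acute phase, vasoactive and amine genes came next. Saa3 and Saa1, serum amyloid A proteins that liver and macrophages make in inflammation, rose by 6.90 ± 0.21 (SE, adjusted p = 1.56e-05) and by 6.62 ± 0.19 (SE, adjusted p = 1.2e-05). Saa3 read 7.56, 7.40 and 6.43 in LPS and 1.03, -0.12 and -0.20 in untreated cells, and Saa1 read 5.84, 5.96 and 5.04 and -0.85, -1.08 and -1.07. Both were lowest on slide 3 among the LPS arrays. Edn1, the vasoconstrictor peptide endothelin 1, read 0.07, -0.25 and -0.77 against -6.71, -6.38 and -6.88, a difference of 6.34 ± 0.16 (SE, adjusted p = 7.62e-06; 3.54 with normexp). Hdc, which makes histamine from histidine, read 1.04, 0.73 and 0.38 against -5.07, -4.49 and -5.15, a difference of 5.62 ± 0.18 (SE, adjusted p = 1.94e-05; 4.16 with normexp). Every LPS array stood above every untreated array for both genes, as the rule required.

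The same group held structural and matrix genes. Syne2, which encodes nesprin 2 of the nuclear envelope, read 1.76, 1.90 and 1.16 in LPS and -4.04, -4.42 and -5.08 in untreated cells, a difference of 6.12 ± 0.14 (SE, adjusted p = 5.15e-06; 4.71 with normexp). Mmp13, a collagenase, read 1.35, 0.34 and -0.29 against -4.29, -5.52 and -4.89, a difference of 5.37 ± 0.25 (SE, adjusted p = 6.77e-05; 3.83 with normexp). Wnt10a, a secreted Wnt ligand, read -0.43, 0.08 and -1.24 against -5.83, -4.99 and -6.17, a difference of 5.13 ± 0.13 (SE, adjusted p = 7.43e-06; 3.23 with normexp). Among these 3 genes slide 1 was not always the extreme one. Fas, a death receptor, Ccrl2, an atypical chemoattractant receptor, Trim30a and Ifi209 completed the set of 15, with differences of 5.96 ± 0.13, 6.30 ± 0.13, 5.75 ± 0.24 and 5.64 ± 0.18. With normexp these 4 differences were 4.64, 5.37, 3.32 and 3.19. Trim30a and Cd69 were each well above background on 2 of the 3 untreated arrays. Saa, Apol9, Trim30, Ifi200 and Ifit genes have close relatives in the mouse genome, so that a probe may read more than 1 family member.

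Genes that were not above background on any untreated array have only a lower bound, set as the mean LPS level over the lowest signal counted as well above background on each untreated array, or over the probe's own where that was higher. Lcn2, lipocalin 2, which binds bacterial siderophores, was at least 203-fold higher, with LPS levels of 0.78, 0.59 and -0.33 (limma adjusted p = 3.75e-06). Ifit3b, of an interferon-induced family, was at least 124-fold higher at -0.71, -0.63 and 0.25. Serpina3f, of a serine protease inhibitor family, was at least 98.5-fold higher at -0.10, -0.78 and -1.20. The zinc finger gene Zfp811 was at least 66.4-fold higher at -0.82, -1.03 and -1.94, and Tnfsf10, the death ligand TRAIL, at least 61.8-fold higher at -1.25, -1.39 and -1.47. These 5 genes were chosen as detected on all 3 LPS arrays and on no untreated array. A gene detected in 1 group alone entered the test through that group, so that the direction of its call was fixed. Bounds hold for the main processing, and with normexp the difference of every gene given a bound was smaller than its bound, for example 4.39 for Lcn2 and 3.70 for Ifit3b on the log2 scale.

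**Figure D2:**
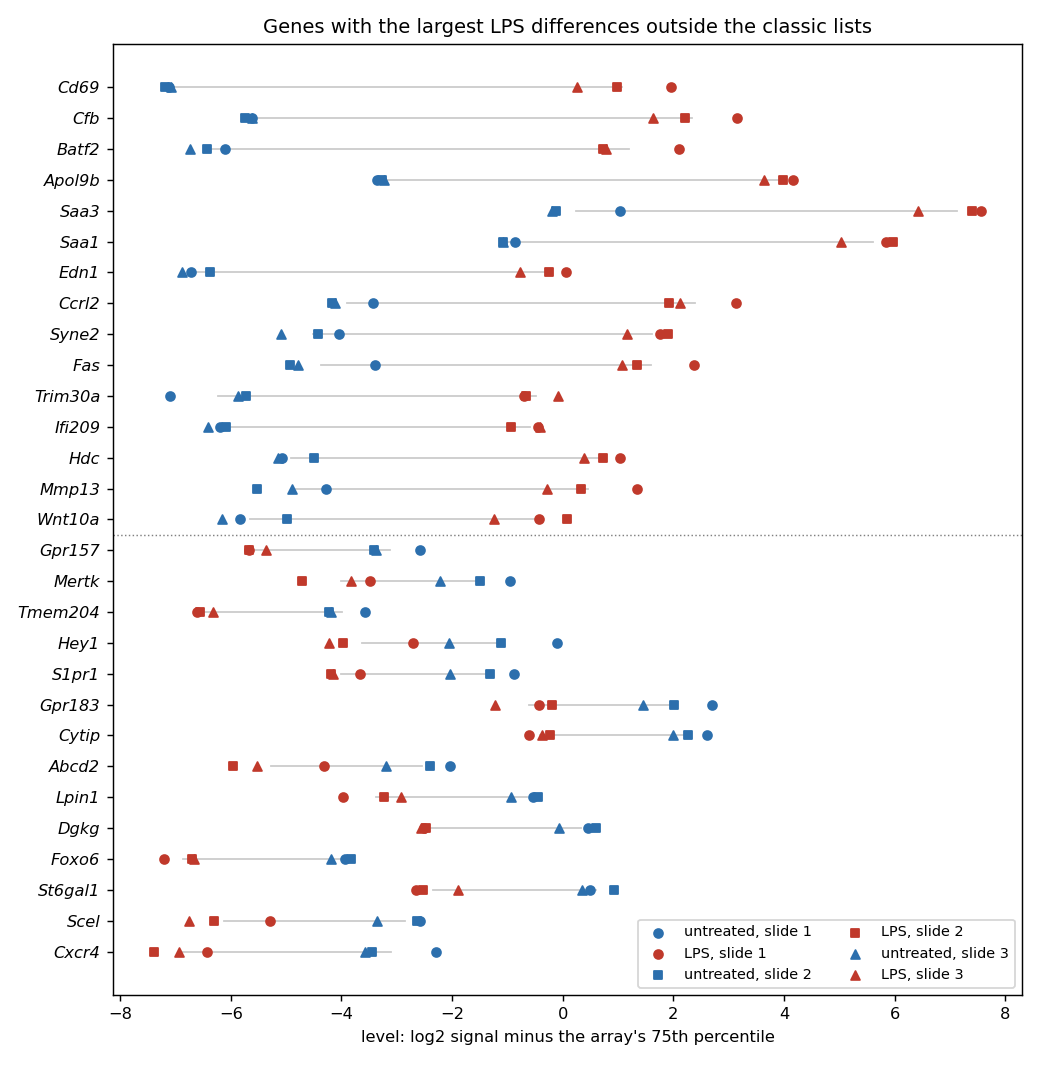
Levels on each array (horizontal axis, log2 signal minus the array's 75th percentile) of the 15 genes with the largest rises and 14 of the 15 with the largest falls outside the classic lists, by the rule for named genes. Red is LPS, blue is untreated, the marker shape is the slide and the grey line joins the group means; in each of the 29 genes the 3 LPS arrays lie apart from the 3 untreated arrays, as the rule required, from Cd69 with a difference of 8.19 to Cxcr4 with -3.81.

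The steepest falls were shallower than the steepest rises, and several were much smaller with normexp. They too were taken only from genes without overlap between groups. Cxcr4, the receptor for the chemokine CXCL12, read -6.43, -7.38 and -6.93 in LPS and -2.29, -3.44 and -3.58 in untreated cells. All LPS arrays were the lower ones, and the difference was -3.81 ± 0.17 (SE, adjusted p = 6.24e-05; -1.11 with normexp). Scel, which encodes sciellin of cornified cell layers, read -5.29, -6.31 and -6.76 against -2.57, -2.63 and -3.36, a difference of -3.27 ± 0.19 (SE, adjusted p = 0.000181; -0.94 with normexp). St6gal1, the enzyme that adds alpha-2,6-linked sialic acid to glycans, read -2.65, -2.52 and -1.89 against 0.50, 0.93 and 0.35. The groups did not overlap and the difference was -2.95 ± 0.23 (SE, adjusted p = 0.000587). Foxo6, a forkhead factor, read -7.21, -6.71 and -6.67 against -3.93, -3.83 and -4.19, a difference of -2.88 ± 0.17 (SE, adjusted p = 0.000171; -0.41 with normexp). Cxcr4 and Foxo6 were each well above background on 2 of the 3 LPS arrays.

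Signal lipid and peroxisome genes were among the falls. Dgkg, a kinase that turns diacylglycerol into phosphatidic acid, read -2.50, -2.47 and -2.56 in LPS and 0.45, 0.60 and -0.07 in untreated cells. The 3 LPS levels of Dgkg lay within a narrow band, all low, and the difference was -2.84 ± 0.14 (SE, adjusted p = 0.000101). Lpin1, lipin 1, the phosphatase that makes diacylglycerol for triglyceride synthesis and also a transcriptional cofactor, read -3.97, -3.23 and -2.92 against -0.54, -0.44 and -0.93, a difference of -2.74 ± 0.26 (SE, adjusted p = 0.00122; -1.99 with normexp). Abcd2, a peroxisomal transporter of very long chain fatty acids, read -4.31, -5.96 and -5.53 against -2.05, -2.40 and -3.19, a difference of -2.72 ± 0.26 (SE, adjusted p = 0.00129; -1.07 with normexp). The same direction on all 3 slides was required of each of these genes and held for every called gene. Mertk, a receptor tyrosine kinase by which phagocytes take up dying cells, read -3.48, -4.71 and -3.83 against -0.95, -1.49 and -2.22, a difference of -2.45 ± 0.29 (SE, adjusted p = 0.00259; -1.44 with normexp).

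The remaining large falls included Cytip, a protein that binds cytohesins at the cell edge, which read -0.62, -0.23 and -0.37 in LPS and 2.61, 2.27 and 2.0 in untreated cells. Its groups did not overlap, with a difference of -2.70 ± 0.19 (SE, adjusted p = 0.000335). Gpr183, S1pr1, Hey1, Tmem204 and Gpr157 had differences of -2.67 ± 0.19, -2.59 ± 0.17, -2.54 ± 0.16, -2.50 ± 0.19 and -2.45 ± 0.22. With normexp those of S1pr1, Hey1, Tmem204 and Gpr157 were -1.67, -1.74, -0.42 and -0.87, and Tmem204 was well above background on 2 of the 3 LPS arrays. Of genes not above background on any LPS array, Rtn4rl1, a relative of the Nogo receptor, was at least 12.8-fold lower with untreated levels of -2.78, -3.31 and -4.20 (limma adjusted p = 2.13e-05). Lbh, a transcription cofactor, was at least 5.81-fold lower with untreated levels of -4.09, -4.23 and -5.10, and Abca6, an ABC transporter, at least 3.79-fold lower with untreated levels of -4.93, -4.80 and -5.81. With normexp background correction the call for Abca6 was lost (adjusted p = 0.248 by limma).

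Several gene families that type I interferon is known to induce moved beyond the reference list, and in the Schlafen and Ms4a list the calls were all upward. All 13 tested members of the Schlafen and Ms4a families were called higher, with a median difference of 3.20 on the main scale and 2.96 on the spike-in scale, beside 13.1% of all genes. The other 4 listed members did not reach the detection that testing asked for, and a member that reached it through the LPS group alone could only be higher. Slfn5, a Schlafen protein of the nucleus, read -1.19, -2.01 and -1.89 in LPS and was below background in untreated cells, at least 49.1-fold higher. Slfn2, which protects transfer RNA in activated immune cells, read 4.65, 4.02 and 3.86 against 0.01, -0.60 and -0.68, a difference of 4.60 ± 0.10 (SE, adjusted p = 5.15e-06). Ms4a4d, of a family of membrane-spanning proteins, was at least 5.06-fold higher, and Slfn4 at least 7.61-fold. Slfn5, Slfn4 and Ms4a4d reached testing through the LPS group alone, so that the direction of their calls was fixed.

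PARP enzymes attach ADP-ribose to proteins and several curb virus replication. Of 18 tested PARP and ADP-ribosylation genes, 10 were called higher (6 on the spike-in scale) and none lower, though 1 was called lower on the spike-in scale, 4 relative to the array median and 3 with normexp. Parp14 read 6.27, 5.63 and 5.67 in LPS and 1.73, 1.06 and 0.55 in untreated cells, a difference of 4.74 ± 0.15 (SE, adjusted p = 1.7e-05). Parp9 read 2.57, 2.49 and 2.59 against -0.24, -0.09 and -0.19, with every LPS array well above every untreated one. Its difference was 2.72 ± 0.11 (SE, adjusted p = 4.32e-05), that of Parp12 was 2.0 ± 0.10 (SE, adjusted p = 0.000104), and that of Zc3hav1, the antiviral zinc finger protein ZAP, was 1.47 ± 0.11 (SE, adjusted p = 0.000417).

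TRIM proteins are ubiquitin ligases, and the list split. Of 29 tested members 10 were called higher and 5 lower (1 without slide 1, 1 without slide 2, 3 without slide 3, 2 without the block), and the median difference was 0.04. The members named by the rule were all of the mouse Trim12, Trim30 and Trim34 cluster. Trim30a read -0.70, -0.66 and -0.09 in LPS and -7.10, -5.73 and -5.86 in untreated cells, with an untreated slide 1 value below the other untreated values and no overlap. Trim34a differed by 3.54 ± 0.16 (SE, adjusted p = 7.07e-05; 2.48 with normexp) and Trim12c by 3.05 ± 0.12 (SE, adjusted p = 3.87e-05; 1.95 with normexp), and Trim30d, below background in untreated cells, was at least 50.5-fold higher. In the list of ubiquitin-like conjugation, 23 of 36 tested members were called higher (14 on the spike-in scale) and 2 lower (1 without slide 1, 1 without slide 2, 1 without slide 3, 1 without the block). Usp18, which removes ISG15 from proteins and dampens the interferon receptor, read 5.31, 4.89 and 5.27 against 0.16, -0.25 and 0.04, a difference of 5.17 ± 0.10 (SE, adjusted p = 4.14e-06). Ube2l6, the conjugating enzyme for ISG15, differed by 1.53 ± 0.10 (SE, adjusted p = 0.000299). The nuclear body proteins Sp100 and Sp110 differed by 3.42 ± 0.18 (SE, adjusted p = 0.000104) and 2.50 ± 0.11 (SE, adjusted p = 6.37e-05).

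Genes that act on RNA gave 10 of 29 higher and 2 lower (0 without slide 1, 0 without slide 2, 1 without slide 3, 0 without the block). The shares were 34.5% and 6.90%, beside 13.1% and 11.9% of all genes. Zc3h12a, regnase 1, an RNase that cuts inflammatory transcripts, read -1.22, -0.28 and -0.71 in LPS and -5.01, -5.37 and -5.13 in untreated cells. The groups of Zc3h12a lay apart, with a difference of 4.44 ± 0.24 (SE, adjusted p = 0.000118; 2.76 with normexp). Helz2, a helicase, differed by 3.64 ± 0.11 (SE, adjusted p = 1.32e-05), Adar, which edits adenosine to inosine in double-stranded RNA, by 1.99 ± 0.13 (SE, adjusted p = 0.000248), and Zfp36, tristetraprolin, which speeds decay of AU-rich transcripts, by 1.69 ± 0.13 (SE, adjusted p = 0.000497).

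The sequence before the start of some of these genes holds letters of the kind that interferon-activated factors bind. The pattern searched was GAAA and GAAA again with any 2 bases between, on both strands, in the 250 bases before each start in the RefSeq promoter table of build GRCm38.p6. It was present in 2.98% of the 32851 promoters of the table and in 2.74% of the 12347 promoters of tested genes. Among genes called higher at least 4-fold it was in 16.4% of 342 promoters, and outside the classic lists in 14.1% of 263. Among genes called lower at least 2-fold it was in 2.59% of 347 promoters. The share among the strong risers was thus above that of all promoters, while the share among the fallers was near it; the part of base composition in these shares was not tested. For Slfn5 and Trim30d, both below background in untreated cells, the windows are shown because each has 1 annotated start and 1 match, which is in capitals. For Slfn5 the window is chr11:82951852-82952101 on the plus strand, and for Trim30d it is chr7:104507850-104508099 on the minus strand, each printed 5′ to 3′ along its gene.
Slfn5: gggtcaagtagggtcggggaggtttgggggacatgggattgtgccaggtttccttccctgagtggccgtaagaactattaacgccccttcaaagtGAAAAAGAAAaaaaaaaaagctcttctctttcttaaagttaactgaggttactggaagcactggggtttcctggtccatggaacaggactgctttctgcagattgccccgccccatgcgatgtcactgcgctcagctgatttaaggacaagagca
Trim30d: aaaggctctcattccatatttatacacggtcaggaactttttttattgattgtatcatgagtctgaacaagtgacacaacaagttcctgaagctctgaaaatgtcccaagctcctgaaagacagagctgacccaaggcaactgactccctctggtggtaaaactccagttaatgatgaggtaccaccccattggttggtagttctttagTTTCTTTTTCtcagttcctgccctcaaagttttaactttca
A match is a string of letters in this window and was not measured as a bound site.

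In the same windows the NF-kB type pattern, GGGA and TTCC with any 2 bases between, was in 1.21% of all promoters and 1.25% of those of tested genes. It was in 3.69% of the 732 promoters of genes called higher at least 2-fold, in 2.17% of the 645 outside the classic lists and in 2.31% of those called lower at least 2-fold, so that outside the classic lists risers and fallers held it at like shares. The AP-1 type pattern TGACTCA was in 4.46% of all promoters and 3.37% of those of tested genes, in 7.24% of those called higher at least 2-fold, in 6.36% of those outside the classic lists and in 4.03% of those called lower at least 2-fold. The C/EBP type TTGCNNCAA was in 1.74% of all promoters, 1.34% of those of tested genes, 2.19% of those higher and 1.15% of those lower at least 2-fold. The E-box CACGTG was in 6.02%, 8.23%, 5.19% and 8.07% of the same sets, less often among risers than among tested genes as a whole. These shares were not tested. Mmp13, the collagenase above, is shown because its window, chr9:7272264-7272513 on the plus strand, holds the interferon type pattern and, close to the start, the AP-1 type pattern, both in capitals.
Mmp13: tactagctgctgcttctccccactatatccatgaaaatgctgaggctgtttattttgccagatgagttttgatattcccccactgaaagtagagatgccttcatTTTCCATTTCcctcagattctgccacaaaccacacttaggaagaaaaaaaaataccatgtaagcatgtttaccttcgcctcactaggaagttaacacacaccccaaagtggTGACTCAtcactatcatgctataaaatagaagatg

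Complement and acute phase genes were called higher more often than lower, and clotting genes were called in both directions. Of 24 tested complement and acute phase genes 13 were called higher and 3 lower (0 without the block), with a median difference of 1.15. Cd14, the LPS co-receptor, read 6.02, 5.38 and 5.0 in LPS and 3.78, 3.13 and 3.49 in untreated cells. All LPS levels of Cd14 were higher, by 2.0 ± 0.17 (SE, adjusted p = 0.000847) on average. Tlr4, the receptor itself, read -1.08, -0.61 and -0.56 against 0.42, 0.22 and -0.02, lower in every LPS array, with a difference of -0.95 ± 0.19 (SE, adjusted p = 0.0177); without slide 2 the call was lost (limma adjusted p = 0.0925). Coagulation, plasmin and serpin genes gave 12 of 22 higher and 6 lower (2 without slide 2, 1 without the block). The shares were 54.5% and 27.3%, both above those of all genes. Their median difference was 0.41, and 0.16 on the spike-in scale. Procr, the protein C receptor, differed by 2.15 ± 0.13 (SE, adjusted p = 0.000215) and F10, clotting factor X, by 1.87 ± 0.10 (SE, adjusted p = 0.00013).

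Adhesion and matrix genes were called higher in 15 of 47 cases and lower in 7 (4 without slide 2, 4 without slide 3, 2 without the block). The shares were 31.9% and 14.9%, the second near the 11.9% of all genes. Col4a2, a chain of basement membrane collagen, read -2.73, -3.71 and -3.85 in LPS and was below background in untreated cells, at least 14.8-fold higher. Vcam1, an adhesion molecule for leukocyte integrins, read -3.43, -4.73 and -4.76 and was at least 8.05-fold higher, and Mmp2, a gelatinase, at least 2.5-fold. Slide 1 had the highest LPS level of each of these 3 genes.

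G protein-coupled receptors moved in both directions by large steps, so that the list changed its make-up more than its median. Of 76 listed receptors 71 were on the array and 53 were tested; 18 were called higher (34.0%) and 14 lower (26.4%), with 15 and 12 of them at 2-fold or more. The median difference was 0.10. Gpr84, a receptor for medium chain fatty acids, read 4.41, 3.73 and 2.86 in LPS and -0.62, -1.76 and -1.95 in untreated cells, a difference of 5.11 ± 0.15 (SE, adjusted p = 1.55e-05). Ccrl2 read 3.14, 1.92 and 2.12 against -3.44, -4.16 and -4.12, a difference of 6.30 ± 0.13 (SE, adjusted p = 4.56e-06; 5.37 with normexp). Ccr7, which guides cells to lymph nodes, was below background in untreated cells and read -4.11, -4.30 and -5.06 in LPS, at least 7.08-fold higher. The groups of Gpr84 did not overlap. Ccrl2 was taken by a rule that required this. Ccr7 entered the test through the LPS arrays alone, so that the direction of its call was fixed.

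On the falling side, Gpr183, which follows oxysterols, read -0.43, -0.19 and -1.22 in LPS and 2.70, 2.02 and 1.45 in untreated cells, a difference of -2.67 ± 0.19 (SE, adjusted p = 0.000349). S1pr1, the sphingosine 1-phosphate receptor that lets cells leave tissue and that CD69 is known to bind and remove, read -3.66, -4.18 and -4.16 against -0.89, -1.32 and -2.03, a difference of -2.59 ± 0.17 (SE, adjusted p = 0.00026; -1.67 with normexp). Both were lowest on LPS arrays without overlap, as the rule for the largest falls required. The next receptors were named after their values were seen. Hcar2, the nicotinic acid receptor, rose by 2.77 ± 0.18 (SE, adjusted p = 0.000247), C3ar1, for the complement peptide C3a, by 1.12 ± 0.10 (SE, adjusted p = 0.00101), and the ATP receptor P2ry2 by 1.09 ± 0.14 (SE, adjusted p = 0.00316). Cnr2, the cannabinoid receptor of immune cells, fell with a difference of -1.77 ± 0.14 (SE, adjusted p = 0.000511), the ADP receptor P2ry1 with -1.42 ± 0.14 (SE, adjusted p = 0.00122), and Gpr34, a lysophosphatidylserine receptor of microglia above background on 2 of the 3 LPS arrays, with -2.37 ± 0.20 (SE, adjusted p = 0.000718; -0.32 with normexp). The plot of receptor differences shows called members at both ends and 21 uncalled members between them.

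**Figure D3:**
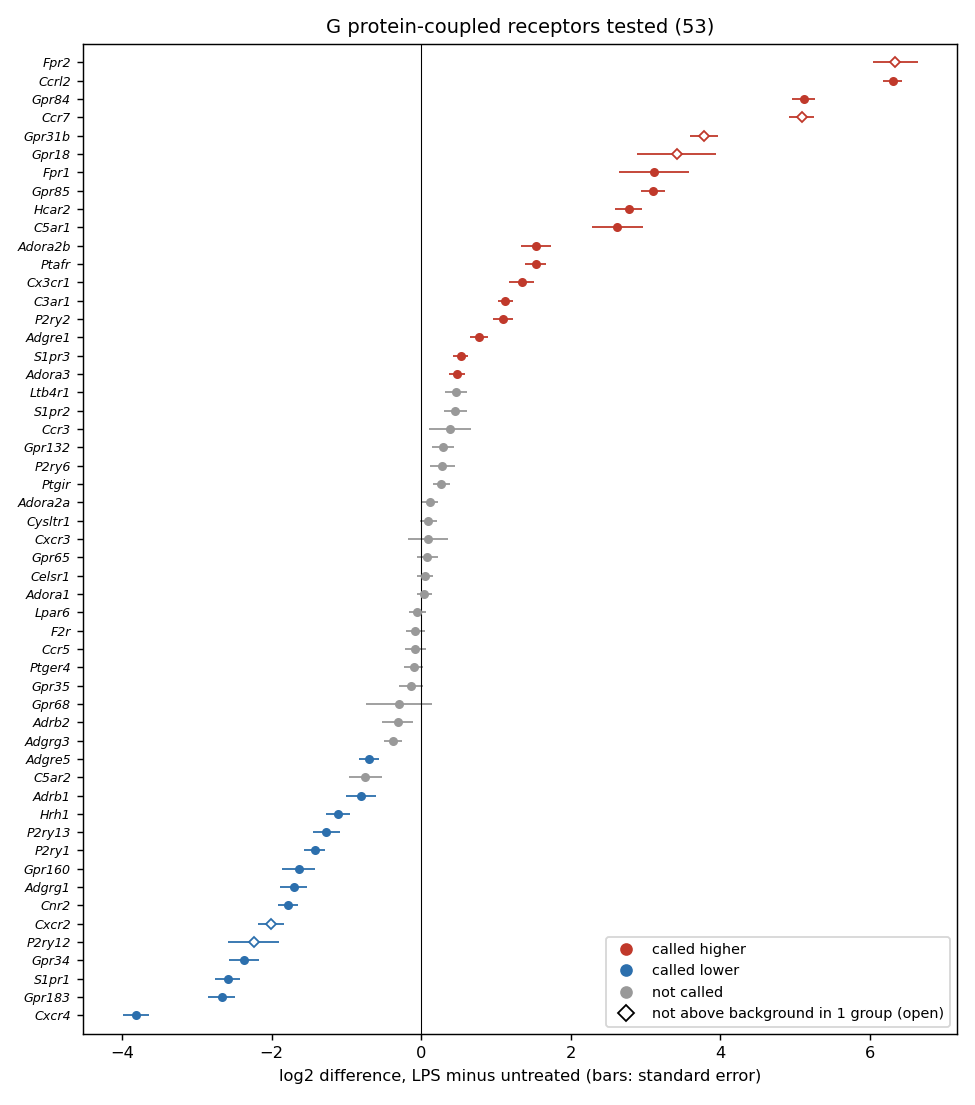
Log2 difference, LPS minus untreated (horizontal axis), with its standard error, for each of the 53 tested G protein-coupled receptors. Red was called higher (18), blue lower (14) and grey not called (21); open symbols mark receptors not above background on any array of 1 group, whose plotted value is the fitted one and not a bound. Ccrl2 at 6.30 and Cxcr4 at -3.81 are the farthest filled symbols.

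Regulators downstream of these receptors were called lower more often than higher with the slide block, and equally often without it. Of 32 tested G protein signalling regulators 5 were called higher and 10 lower (5 without slide 2, 4 without the block), beside 13.1% and 11.9% of all genes. Without the block 4 were called higher and 4 lower, and without slide 2 4 and 5. Akap12, a scaffold for protein kinase A, read -2.32, -2.79 and -2.38 in LPS and -6.64, -7.07 and -7.11 in untreated cells, a difference of 4.44 ± 0.13 (SE, adjusted p = 1.37e-05; 1.87 with normexp). Pde4b, which breaks down cyclic AMP, read 2.65, 1.74 and 1.41 against -1.31, -1.75 and -1.28, a difference of 3.38 ± 0.24 (SE, adjusted p = 0.00036). Rgs18, which shortens G protein signals, read -3.74, -4.11 and -3.90 against -2.11, -2.37 and -2.26, lower on all 3 slides with a difference of -1.67 ± 0.10 (SE, adjusted p = 0.000212; -0.98 with normexp).

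Kinases and brakes of the innate pathway rose more often than they fell. Among 54 tested immune signalling kinases and adaptors 22 were called higher and 4 lower (2 without slide 1, 2 without slide 2). The shares were 40.7% and 7.41%, beside 13.1% and 11.9% of all genes. Ikbke, a kinase that activates IRF3, read 1.73, 0.98 and 1.13 in LPS and -1.66, -1.96 and -2.13 in untreated cells, a difference of 3.20 ± 0.13 (SE, adjusted p = 4.06e-05). Irak3, a brake on Toll-like receptor signals, read 1.15, 0.29 and 0.36 against -1.79, -2.10 and -1.95, and its active relative Irak2 read 3.78, 3.11 and 3.18 against 1.78, 1.37 and 1.53. Their differences were 2.55 ± 0.15 (SE, adjusted p = 0.00019) and 1.80 ± 0.12 (SE, adjusted p = 0.000265). Signalling brakes gave 12 of 35 higher and 4 lower (2 without slide 1, 2 without slide 2, 2 without slide 3, 1 without the block). Socs3 and Socs1, which stop JAK and STAT signals, read 5.90, 5.38 and 4.73 against 2.01, 1.88 and 1.52 and 2.06, 0.98 and 0.08 against -1.92, -2.42 and -2.83. Socs3 differed by 3.53 ± 0.15 (SE, adjusted p = 5.42e-05) and Socs1 by 3.43 ± 0.21 (SE, adjusted p = 0.000191), each highest on slide 1. Rasa4, which turns off Ras, differed by 2.74 ± 0.11 (SE, adjusted p = 3.96e-05), and Dusp8, a MAP kinase phosphatase, was at least 8.24-fold higher.

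Cytoskeletal regulators rose in 25 of 56 tested cases and fell in 5 (3 without slide 2, 2 without the block). Marcks and Marcksl1, which link actin to the membrane and release it on phosphorylation, read 4.86, 4.02 and 3.67 against 2.60, 1.63 and 1.09 and 3.96, 3.51 and 3.43 against 1.11, 1.21 and 1.20. Marcks varied between slides in both groups together, and the slide-paired differences were 2.26, 2.38 and 2.58; the fitted difference was 2.41 ± 0.11 (SE, adjusted p = 7.72e-05). Marcksl1 differed by 2.46 ± 0.15 (SE, adjusted p = 0.000213), Rapgef2, an activator of Rap1, by 2.27 ± 0.10 (SE, adjusted p = 6.04e-05), and the small GTPase Rhou by 1.72 ± 0.12 (SE, adjusted p = 0.000365). Cell death genes were called higher in 19 of 40 tested cases and lower in 3 (1 without slide 1, 1 without slide 2, 1 without slide 3, 0 without the block, 5 on the spike-in scale), and the named ones acted on both sides of survival. The death receptor Fas read 2.37, 1.34 and 1.08 in LPS and -3.39, -4.92 and -4.78 in untreated cells, and Bcl2a1b, a survival protein of the BCL2 family with near-identical copies, read 5.69, 5.85 and 5.25 against 1.17, 1.12 and 1.40. Fas differed by 5.96 ± 0.13 (SE, adjusted p = 5.15e-06; 4.64 with normexp), Bcl2a1b by 4.37 ± 0.18 (SE, adjusted p = 4.99e-05) and the TNF receptor Tnfrsf1b by 3.07 ± 0.12 (SE, adjusted p = 3.87e-05).

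Transcription factors outside the NF-kB, IRF and STAT core were redrawn family by family. In the list of bZIP, ETS, bHLH and forkhead factors 23 of 54 were called higher (13 without slide 2, 14 without the block, 15 on the spike-in scale) and 12 lower (5 without slide 2, 7 without slide 3, 6 without the block). Cebpd, a C/EBP factor of the acute phase, read 6.07, 5.56 and 5.01 in LPS and 3.12, 2.64 and 2.73 in untreated cells, a difference of 2.72 ± 0.16 (SE, adjusted p = 0.000183). Batf, below background in untreated cells, read -3.13, -2.74 and -4.04 and was at least 16.2-fold higher. KLF, SP and EGR factors gave 2 higher (1 without slide 2) and 5 lower (3 without slide 2, 3 without the block) of 14. Klf4, which macrophages use in alternative activation, read -0.90, -1.12 and -0.31 against 1.46, 1.40 and 0.96, lower on each slide with a difference of -2.05 ± 0.25 (SE, adjusted p = 0.00293). Klf6, which is known to aid NF-kB, read 4.31, 3.81 and 3.84 against 3.21, 2.83 and 3.07, higher by 0.95 ± 0.12 (SE, adjusted p = 0.00297). Those 2 relatives moved in opposite directions without overlap in either.

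Other lymphoid and myeloid factors gave 14 of 37 higher (9 without slide 2, 7 on the spike-in scale) and 9 lower. Prdm1, Blimp-1, a repressor of plasma cells and myeloid cells, read 0.78, -1.61 and -2.09 in LPS and -4.33, -4.88 and -5.51 in untreated cells. Slide 1 was far higher than the other LPS arrays, and the difference was 3.93 ± 0.36 (SE, adjusted p = 0.00099; 2.45 with normexp). Pou2f2, OCT2, differed by 3.13 ± 0.15 (SE, adjusted p = 8.75e-05; 2.29 with normexp), Zeb1, a repressor of epithelial genes, by 1.97 ± 0.16 (SE, adjusted p = 0.000592; 0.99 with normexp), and Stat3 by 1.44 ± 0.14 (SE, adjusted p = 0.00142).

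Surface molecules by which microglia meet other cells rose more often than they fell. Costimulatory and checkpoint molecules gave 14 of 28 higher and 5 lower (3 without slide 2, 3 without the block). Cd274, the checkpoint ligand PD-L1, read 2.80, 2.05 and 2.17 in LPS and -0.64, -1.07 and -0.85 in untreated cells, a difference of 3.19 ± 0.12 (SE, adjusted p = 3.87e-05). Lgals9, galectin 9, differed by 2.83 ± 0.11 (SE, adjusted p = 3.63e-05). Slamf8, a SLAM family receptor, read -1.06, -1.07 and -1.04 against -3.79, -3.70 and -3.78, with tight values in both groups and a difference of 2.70 ± 0.10 (SE, adjusted p = 3.63e-05; 1.92 with normexp). Fc, Siglec and inhibitory receptors with lectins gave 20 of 42 higher (47.6%) and 5 lower (3 without slide 1, 2 without slide 2, 3 without slide 3, 3 without the block). Clec4e, Mincle, which senses mycobacterial glycolipid, read 5.77, 5.17 and 5.10 against 2.20, 1.58 and 2.23, a difference of 3.34 ± 0.17 (SE, adjusted p = 0.000103). Clec2d differed by 4.27 ± 0.20 (SE, adjusted p = 7.73e-05; 2.77 with normexp) and the activating receptor Pilrb1 by 3.86 ± 0.14 (SE, adjusted p = 3.29e-05), and Olr1, the scavenger receptor LOX-1, was at least 9.93-fold higher.

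Antigen presentation genes gave 14 of 22 higher (9 on the spike-in scale) and 3 lower (0 without slide 1, 0 without slide 2, 0 without slide 3, 0 without the block). Ciita, the master switch of MHC class II genes, read -3.72, -4.19 and -4.37 in LPS and -6.97, -7.39 and -8.99 in untreated cells, a difference of 3.69 ± 0.29 (SE, adjusted p = 0.000558; 1.07 with normexp). Ciita was well above background on only 1 of the 3 untreated arrays, so that the size of its difference is uncertain. H2-T24, a non-classical class I gene, read -1.52, -2.02 and -1.35 against -5.57, -5.80 and -5.43, a difference of 3.97 ± 0.11 (SE, adjusted p = 1.3e-05; 2.26 with normexp). Tapbp and Tapbpl, which load peptides onto class I, differed by 1.54 ± 0.10 (SE, adjusted p = 0.000274) and 1.53 ± 0.13 (SE, adjusted p = 0.000656). The class I genes are close copies, so that probes may share signal.

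Fatty acid genes were called lower more often than higher with the slide block, and equally often without it. Of 54 tested fatty acid and glycerolipid genes 8 were called higher (4 without slide 2, 5 without the block, 4 on the spike-in scale) and 15 lower (7 without slide 2, 8 without slide 3, 5 without the block). Acsl1, which activates long chain fatty acids, read 5.95, 5.46 and 5.28 in LPS and 4.30, 3.96 and 3.99 in untreated cells, a difference of 1.48 ± 0.12 (SE, adjusted p = 0.000592). Scd2, a fatty acid desaturase, read 4.99, 5.21 and 5.38 against 6.05, 6.27 and 6.15, and Elovl7, an elongase, read 0.24, 0.08 and 0.26 against 1.30, 1.21 and 1.02. Scd2 differed by -0.96 ± 0.12 (SE, adjusted p = 0.00281) and Elovl7 by -0.99 ± 0.12 (SE, adjusted p = 0.00293), without overlap in either. Cholesterol synthesis and sterol transport gave 4 higher (2 without slide 2, 2 without the block, 1 on the spike-in scale) and 3 lower (1 without slide 1, 0 without slide 2, 0 without slide 3, 0 without the block) of 33, shares near those of all genes.

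At 6 h citrate cycle genes had few calls. Glycolysis genes were called higher somewhat more often than all genes on the main scale, but not on the spike-in scale or without slide 2. Higher calls over all genes numbered 2384 on the main scale, 1251 on the spike-in scale and 1410 without slide 2. For the glycolysis list they numbered 6, 2 and 2. Glycolysis and glucose transport genes gave 6 of 32 higher (18.8%, beside 13.1% of all genes) (2 without slide 2, 3 without the block, 2 on the spike-in scale) and 3 lower (1 without slide 2, 1 without slide 3, 1 without the block), and only 1 of them rose by 2-fold or more. That gene was Slc2a6, the glucose transporter GLUT6 of lysosomes, which read 5.45, 4.94 and 4.59 in LPS and 3.0, 2.79 and 2.72 in untreated cells, a difference of 2.16 ± 0.14 (SE, adjusted p = 0.000263). Slc2a1, the main glucose transporter GLUT1, read 5.13, 5.16 and 4.97 against 4.26, 3.87 and 4.37, a difference of 0.92 ± 0.15 (SE, adjusted p = 0.00907). Hk2, an inducible hexokinase, read 5.21, 5.48 and 5.35 against 4.75, 4.59 and 4.84; its difference of 0.62 ± 0.13 (SE, adjusted p = 0.0191) was not called on the spike-in scale (adjusted p = 0.286) or without slide 2 (adjusted p = 0.0689), by limma in both cases. Citrate cycle and pyruvate genes gave 0 higher and 3 lower (1 without slide 1, 1 without slide 2) of 37, shares below those of all genes, and 7 lower with normexp or relative to the array median. Pdp1, the phosphatase that switches pyruvate dehydrogenase on, read -3.59, -3.31 and -3.04 against -1.98, -1.98 and -2.09, lower with a difference of -1.30 ± 0.15 (SE, adjusted p = 0.00247).

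Transport and redox genes held some of the larger metabolic steps. Solute carriers gave 18 of 56 higher (11 without slide 2, 11 on the spike-in scale) and 11 lower (6 without slide 2). The shares were 32.1% and 19.6%, beside 13.1% and 11.9% of all genes. Slc7a11, the cystine and glutamate exchanger through which microglia take up cystine for glutathione and release glutamate, read 0.47, 0.37 and 0.40 in LPS and -3.87, -3.24 and -2.67 in untreated cells. The LPS arrays of Slc7a11 lay closer together than the untreated ones, and the difference was 3.67 ± 0.23 (SE, adjusted p = 0.000247; 3.01 with normexp). Slc15a3, which exports bacterial peptides from lysosomes, differed by 2.55 ± 0.13 (SE, adjusted p = 0.000111), the nucleoside carrier Slc28a2, above background on 2 of the 3 untreated arrays, by 3.25 ± 0.14 (SE, adjusted p = 5.17e-05; 1.0 with normexp) and the copper carrier Slc31a2 by 1.97 ± 0.11 (SE, adjusted p = 0.000148). Antioxidant and haem genes gave 11 of 33 higher (6 without slide 2, 3 on the spike-in scale) and 1 lower. Sod2, mitochondrial superoxide dismutase, read 7.65, 7.49 and 7.03 against 5.92, 5.79 and 5.82, and Cybb, the catalytic subunit of the phagocyte NADPH oxidase, read 3.13, 2.99 and 2.71 against 1.12, 0.89 and 0.24. Sod2 differed by 1.54 ± 0.14 (SE, adjusted p = 0.001) and Cybb by 2.19 ± 0.13 (SE, adjusted p = 0.000189). Gclc, the rate-limiting enzyme of glutathione synthesis, read 1.84, 1.93 and 2.25 against 2.86, 3.07 and 3.02, lower with a difference of -0.98 ± 0.12 (SE, adjusted p = 0.0029), so that the cystine carrier and this enzyme went opposite ways on each slide.

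Cofactor and nucleotide genes moved at single points. In the list of NAD, kynurenine and vitamin enzymes 7 of 29 were called higher and 5 lower (2 without slide 1, 1 without slide 2, 3 without slide 3, 1 without the block). Cd38, which consumes NAD, read -0.13, -0.26 and -1.56 in LPS and -2.97, -3.57 and -3.87 in untreated cells, a difference of 2.82 ± 0.20 (SE, adjusted p = 0.000356; 2.20 with normexp). Gch1, the first enzyme of tetrahydrobiopterin synthesis, a cofactor of nitric oxide synthase, read 2.67, 2.41 and 2.18 against 0.26, -0.25 and 0.51, a difference of 2.24 ± 0.20 (SE, adjusted p = 0.000921). Nadk, which makes NADP, differed by 1.18 ± 0.11 (SE, adjusted p = 0.00114). Nampt, which recycles NAD, differed by 0.86 ± 0.10 (SE, adjusted p = 0.00288), and on the spike-in scale it was not called (limma adjusted p = 0.0533). Purine and pyrimidine genes gave 3 higher and 2 lower (1 without slide 1, 1 without slide 2, 1 without slide 3, 0 without the block) of 36, both under the shares of all genes. The risers included Ampd3, AMP deaminase, with 2.03 ± 0.14 (SE, adjusted p = 0.000347) and Pnp, purine nucleoside phosphorylase, with 1.59 ± 0.11 (SE, adjusted p = 0.000318).

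Glycan enzymes were called in both directions, 12 higher (7 without slide 2, 5 on the spike-in scale) and 11 lower (7 without slide 2, 7 without the block) of 47. The shares were 25.5% and 23.4%, beside 13.1% and 11.9% of all genes. The fall of St6gal1, above, stood beside a rise of St3gal1, which adds alpha-2,3-linked sialic acid. St3gal1 read 4.77, 4.12 and 4.01 in LPS and 2.91, 2.07 and 2.11 in untreated cells, higher on each slide by 1.93 ± 0.11 (SE, adjusted p = 0.000133). Ion channel genes gave 7 higher (4 without the block, 4 on the spike-in scale) and 6 lower (3 without slide 1, 1 without slide 2, 2 without slide 3, 1 without the block) of 37. Their shares, 18.9% and 16.2%, stood near the 13.1% and 11.9% of all genes. The called channel genes included Mcoln2, a lysosomal cation channel, with 1.61 ± 0.10 (SE, adjusted p = 0.000229), and Kcne3, a potassium channel subunit, with -2.36 ± 0.15 (SE, adjusted p = 0.000229; -0.85 with normexp). Lysosome and autophagy genes gave 2 higher and 7 lower (2 without slide 1, 1 without slide 2, 3 without slide 3, 2 without the block) of 47. Their shares were 4.26%, below the 13.1% of all genes, and 14.9%, near the 11.9% of all genes. The rises in that list were the autophagy receptors Sqstm1, p62, with 1.26 ± 0.11 (SE, adjusted p = 0.000877), and Optn, optineurin, with 1.06 ± 0.11 (SE, adjusted p = 0.00177). The protein synthesis lists had few calls: 2 of 37 ribosome biogenesis genes were called higher and 1 lower, and 1 of 20 aminoacyl-tRNA synthetase genes was called higher and 0 lower. None of those higher calls held on the spike-in scale.

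DNA replication and DNA repair genes were called lower more often than all genes, by small steps, and mitosis genes at a share near that of all genes on the main scale. Of 50 tested DNA replication genes 27 were called lower (54.0%, beside 11.9% of all genes) (11 without slide 2, 12 without slide 3, 14 without the block) and none higher, with a median difference of -0.45 and of -0.69 on the spike-in scale. Of 44 tested genes of DNA repair and homologous recombination 25 were called lower (56.8%) (10 without slide 2, 15 without the block) and none higher, with medians of -0.54 and -0.79. The medians were -0.52, -0.42 and -0.37 on the slides for replication and -0.48, -0.55 and -0.43 for repair. With all 12 arrays 4 replication and 8 repair genes were called lower, without the filter on dim probes 5 and 7, and relative to the array median 40 and 30. With normexp they were 41 and 31, and 1 repair gene was called higher. Mitosis genes gave 6 of 43 lower (14.0%) (0 without slide 2, 2 without slide 3, 1 without the block) and 0 higher, with a median of -0.17. Their lower calls numbered 9 on the spike-in scale, 18 relative to the array median and 17 with normexp. Over all genes, lower calls numbered 2172 on the main scale, 2789 on the spike-in scale, 3849 relative to the array median and 2572 with normexp. They numbered 862 without slide 2, 1438 without slide 3, 1022 without the block and 501 with all 12 arrays. The count of a list under a setting is to be read beside that of all genes under it. The difference between mitosis and replication genes was not tested. Fewer cells in S phase and less of each transcript per cell cannot be told apart in bulk RNA.

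Tk1, thymidine kinase, which rises in S phase, read 3.52, 2.95 and 2.83 in LPS and 4.52, 4.08 and 3.94 in untreated cells, a difference of -1.08 ± 0.10 (SE, adjusted p = 0.00123). Cdc6, which loads the replicative helicase at origins, read 0.62, 1.01 and 0.85 against 1.80, 1.85 and 1.59, a difference of -0.92 ± 0.13 (SE, adjusted p = 0.00461). Neither gene overlapped between the groups. Uhrf1, which copies DNA methylation marks, differed by -0.94 ± 0.12 (SE, adjusted p = 0.0036), and Pole2, a subunit of polymerase epsilon, by -0.89 ± 0.11 (SE, adjusted p = 0.00272). Brca1, of homologous recombination, read 0.32, 0.45 and 0.84 against 2.03, 2.16 and 1.85, a difference of -1.48 ± 0.17 (SE, adjusted p = 0.00229). Chek2, a checkpoint kinase, read -1.66, -1.81 and -1.05 against -0.44, -0.28 and -0.28, a difference of -1.17 ± 0.16 (SE, adjusted p = 0.0048). Ddb2, which finds UV damage, differed by -0.99 ± 0.11 (SE, adjusted p = 0.0023), and Xrcc3, of homologous recombination, by -0.83 ± 0.10 (SE, adjusted p = 0.00291). The proliferation marker Mki67 read 4.62, 4.42 and 4.69 against 4.87, 4.77 and 4.67; its groups overlapped and it was not called (difference -0.20 ± 0.12 (SE, adjusted p = 0.291)).

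**Figure D4:**
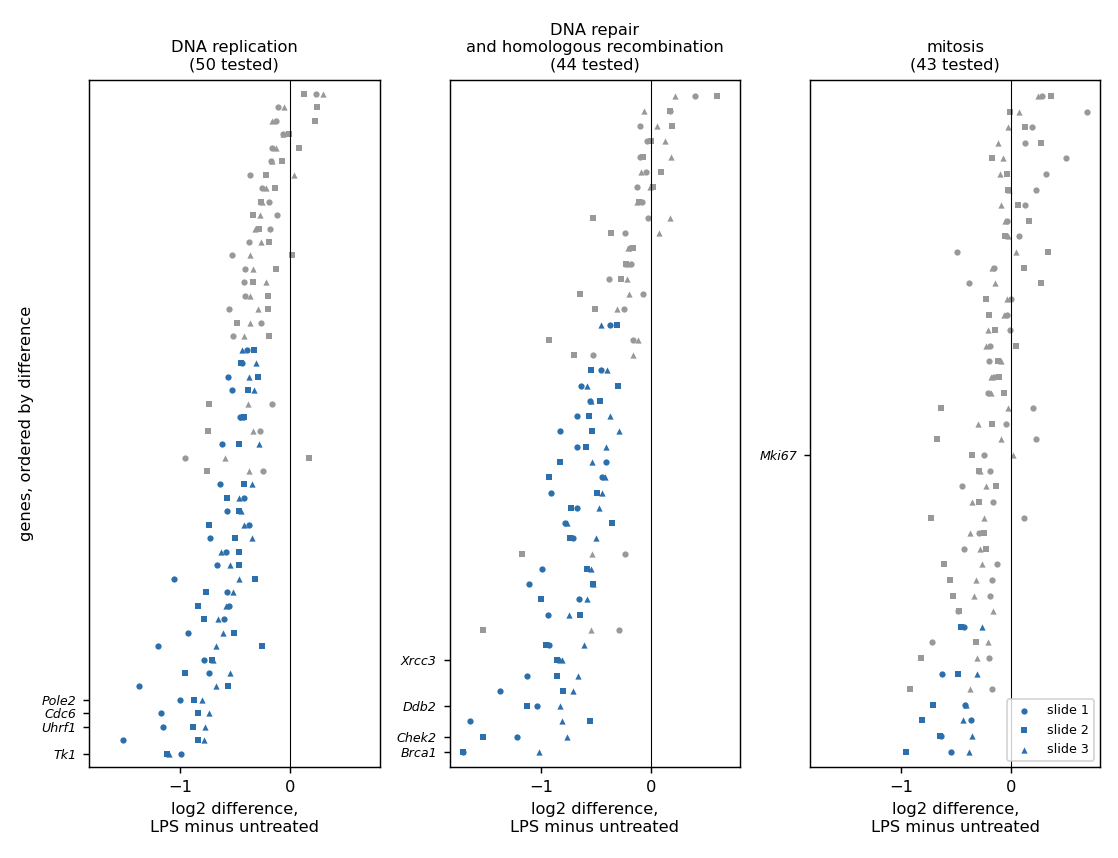
Log2 difference, LPS minus untreated, on each slide (horizontal axis, marker shape by slide) for every tested gene of 3 lists: DNA replication (50), DNA repair and homologous recombination (44) and mitosis (43). Blue genes were called lower (27, 25 and 6) and grey genes were not called, and the genes named in the text are labelled; most blue genes lie between 0 and -1, with Brca1 and Tk1 at the bottom of their panels.

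E2F factors are known to drive many S phase genes, and their usual letters, TTTGGCGC or TTTCCCGC on either strand, were searched in the same 250-base windows after the falls had been seen. They were in 1.30% of all promoters and 2.23% of the promoters of tested genes. In the list of DNA replication they were in 13.7% of 51 promoters, in the list of DNA repair in 15.2% of 33, and in the list of mitosis in none of 38. All genes called lower held them in 2.65% of 1701 promoters, and those lower by at least 2-fold in 2.31% of 347. The list shares count tested members whether called or not, and a link of these letters to the falls was not tested. Cdc6 and Chek2 are shown as called members with 1 start and 1 match, in capitals. The window of Cdc6 is chr11:98907901-98908150 on the plus strand and that of Chek2 is chr5:110839733-110839982 on the plus strand.
Cdc6: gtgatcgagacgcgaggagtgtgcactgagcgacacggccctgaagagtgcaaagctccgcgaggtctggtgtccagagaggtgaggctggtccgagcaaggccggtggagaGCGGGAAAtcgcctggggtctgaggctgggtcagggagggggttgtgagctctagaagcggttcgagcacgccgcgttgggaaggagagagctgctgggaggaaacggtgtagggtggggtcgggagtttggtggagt
Chek2: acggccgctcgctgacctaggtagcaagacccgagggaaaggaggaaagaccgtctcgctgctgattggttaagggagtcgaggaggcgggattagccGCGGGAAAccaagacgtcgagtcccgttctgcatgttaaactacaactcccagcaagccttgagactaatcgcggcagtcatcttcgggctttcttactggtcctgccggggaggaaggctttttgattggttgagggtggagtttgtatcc

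Growth arrest genes split. Of 29 tested p53 targets and cell cycle brakes 9 were called higher and 10 lower (6 without slide 2, 4 without the block). The shares were 31.0% and 34.5%, beside 13.1% and 11.9% of all genes. Btg2, an antiproliferative cofactor of mRNA decay, read 0.23, -0.58 and -1.21 in LPS and -2.33, -2.62 and -3.52 in untreated cells, a difference of 2.30 ± 0.13 (SE, adjusted p = 0.000156). Gadd45a, a stress protein, differed by 1.68 ± 0.16 (SE, adjusted p = 0.00128) and Btg1 by 1.03 ± 0.10 (SE, adjusted p = 0.00136). Sesn1, sestrin 1, an inhibitor of mTORC1, read 1.63, 1.52 and 1.16 against 3.58, 3.09 and 2.43, lower with a difference of -1.60 ± 0.15 (SE, adjusted p = 0.00119).

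Clock genes were called in 6 of 18 cases, each lower (2 without slide 2, 3 without the block), and in none higher, though 2 were called higher with normexp. Tef and Dbp, output factors of the circadian clock that bind D-boxes, read -1.64, -1.19 and -0.89 against -0.22, -0.03 and -0.04 and 1.42, 1.58 and 1.38 against 2.40, 2.26 and 2.08. Tef differed by -1.15 ± 0.14 (SE, adjusted p = 0.00287) and Dbp by -0.78 ± 0.12 (SE, adjusted p = 0.0059), and neither overlapped. Whether the untreated cells were harvested at the same hour is not stated in the sources used here.

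Developmental signalling lists were split. The list of Notch and Wnt genes gave 8 higher and 8 lower (4 without the block) of 23. Notch1, the receptor, read -3.79, -3.62 and -4.03 in LPS and -6.68, -5.96 and -6.22 in untreated cells, a difference of 2.48 ± 0.16 (SE, adjusted p = 0.000251; 0.87 with normexp). Dll1, a Notch ligand, was below background in untreated cells and at least 1.76-fold higher. Hey1, a target and repressor in the Notch pathway, read -2.71, -3.98 and -4.22 against -0.10, -1.11 and -2.06, lower with a difference of -2.54 ± 0.16 (SE, adjusted p = 0.000212; -1.74 with normexp). The TGF-beta, activin and BMP list gave 2 higher and 6 lower of 28. Gdf15, a stress cytokine of that superfamily, read 5.21, 4.36 and 4.67 against 1.14, 0.05 and 1.60, a difference of 3.82 ± 0.24 (SE, adjusted p = 0.000241). Smad3, a signal transducer of TGF-beta, differed by -1.21 ± 0.13 (SE, adjusted p = 0.00195), and Bambi, a decoy receptor, by -1.43 ± 0.12 (SE, adjusted p = 0.000665).

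Growth and vascular factors gave 10 higher (6 on the spike-in scale) and 11 lower (7 without slide 1, 5 without slide 2, 5 without the block) of 37. The shares were 27.0% and 29.7%, beside 13.1% and 11.9% of all genes. Pdgfb, a platelet-derived growth factor, read 2.12, 0.72 and 1.12 in LPS and -0.76, -1.12 and -0.73 in untreated cells, a difference of 2.19 ± 0.23 (SE, adjusted p = 0.00157). Nrp2, a co-receptor for semaphorins and VEGF, differed by 1.21 ± 0.11 (SE, adjusted p = 0.00115). Axl, a TAM receptor related to Mertk, was below background in untreated cells and read -6.23, -6.15 and -5.38 in LPS, at least 2.63-fold higher. Axl and Mertk, both receptors for Gas6, were called in opposite directions. Axl entered the test through the LPS arrays alone, however, so that the direction of its call was fixed. With normexp the difference of Axl was 0.56.

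Microglial genes were checked against the label. Of 27 identity markers with a probe, 23 were well above background on all 6 arrays, among them Csf1r, Trem2, Irf8 and Tyrobp; Siglech was not above background on any array and P2ry12 was above it in untreated cells only. Of the 25 tested markers 4 were called higher (1 without the block, 2 on the spike-in scale) and 11 lower (5 without slide 2, 6 without the block). Csf1r, the receptor that keeps microglia alive, read 4.61, 4.10 and 3.71 in LPS and 4.55, 4.09 and 3.83 in untreated cells, with a difference of -0.02 ± 0.11 (SE, adjusted p = 0.922). Cx3cr1, the fractalkine receptor, read -2.06, -2.35 and -3.75 against -3.19, -4.14 and -4.86. The slides differed more than the groups did for Cx3cr1, and its difference of 1.34 ± 0.16 (SE, adjusted p = 0.00297) was lost without the slide block (limma adjusted p = 0.162). P2ry12, the ADP receptor of resting microglia, read -4.97, -5.61 and -6.72 in untreated cells and was at least 2.53-fold lower in LPS (limma adjusted p = 0.00647), and without slide 2 the adjusted p was 0.0761. With normexp the difference of P2ry12 was 0.0012 and it was not called (limma adjusted p = 0.993). Trem2, a lipid sensor, read 6.89, 6.42 and 6.09 against 7.29, 6.72 and 6.66; its difference of -0.43 ± 0.11 (SE, adjusted p = 0.039) was lost without any 1 slide, with adjusted p of 0.0914, 0.0762 and 0.243 by limma.

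Markers of other cell types were at background in part. Not above background on any of the 6 arrays were 6 of 10 astrocyte markers, Gfap and Aqp4 among them, 7 of 11 neuron markers, 6 of 9 endothelial markers, 5 of 8 fibroblast markers, 4 of 10 lymphocyte markers and 2 of 9 oligodendrocyte markers. In these 6 lists 4 genes were called: Pdgfrb, a receptor of mural cells and fibroblasts, and Flt1, a VEGF receptor, were higher, and Mbp and Cd79b were lower, with differences of 2.36, 0.62, -1.37 and -0.83. Pdgfrb was well above background on 2 of the 3 untreated arrays and Mbp on 1 of the 3 LPS arrays, and with normexp the differences of Pdgfrb, Mbp and Cd79b were 0.80, 0.07 and -0.10. Flt1 was not called on the spike-in scale, and Mbp and Cd79b were not called without the slide block or with normexp; their part in the results above was not tested. The summed signal of the endothelial list, in multiples of the array's 75th percentile, was 47.9 to 59.4 in LPS and 39.4 to 41.2 in untreated cells, without overlap. Of the 3 endothelial markers above background, Flt1 alone was called. The fibroblast sum was 0.0943 to 0.126 in LPS and 0.0638 to 0.0892 in untreated cells, also without overlap. The sums of the other lists overlapped between the groups. The astrocyte sum was 7.63 to 9.44 in LPS and 8.73 to 10.8 in untreated cells, and the neuron sum was 12.6 to 18.4 in LPS and 10.2 to 16 in untreated cells. For oligodendrocyte markers it was 1.85 to 2.33 in LPS and 2.1 to 2.24 in untreated cells, and for lymphocyte markers 0.138 to 0.179 in LPS and 0.139 to 0.2 in untreated cells. Defining markers such as Col3a1, Cd3d, Cldn5 and Mog were not above background on any array.

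Across the 41 lists beyond the classic ones, the bar plot of calls sets each list beside all genes tested. Lists of interferon-linked families, presentation, complement and costimulation lie at its top, with most of their called members higher, and replication and repair lie at its bottom. The middle holds lists with calls in both directions, such as receptors, Notch and Wnt genes and p53 targets. The lists were chosen with earlier results of these data known and were not tested as sets.

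**Figure D5:**
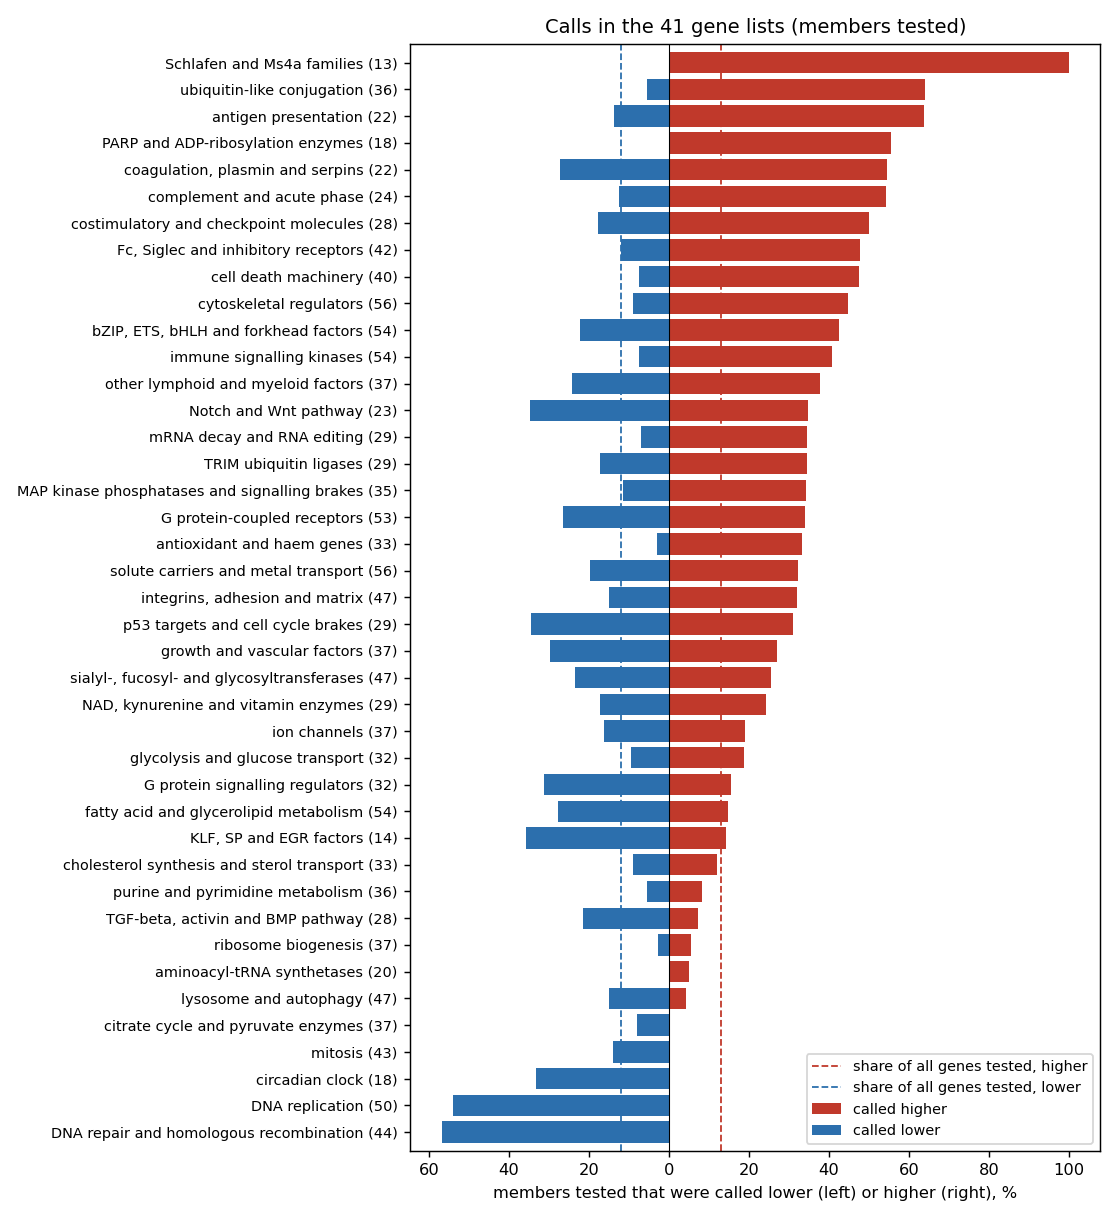
Share of the tested members of each of 41 gene lists that were called higher (red, to the right) or lower (blue, to the left), in percent, with the number tested in parentheses. Dashed lines mark the shares among all 18243 genes tested, 13.1% higher and 11.9% lower; the Schlafen and Ms4a list reaches 100% higher and the DNA repair list 56.8% lower.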

How the data were processed

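RNA of the 12 BV-2 samples was labelled with Cy3 and hybridised to one-colour Agilent 44K mouse arrays, 4 on each of 3 slides. The deposited intensity values are scanner signals from which Agilent Feature Extraction had subtracted the background; the file headers give its version as 10.5.1.1 and the submitters' processing notes as 9.1. The authors' deposited value table, also an intensity, equalled the processed signal to within 0.397%. It entered an alternative fit only, which also called 4556 genes. Here log2 of the deposited processed signal minus the array's 75th percentile entered a linear model (limma 3.58.1, R 4.3.3) of the 6 LPS and untreated arrays, with the slide as a block, because same-numbered arrays deviated together (correlations 0.610, 0.256 and 0.578). One probe per gene was used, the brightest over the 6 arrays, with no pseudocount. Arrays, not read counts, give the precision, and 3 per group limit it. Control spots and outlier flags were left out. Probes were named by RefSeq accession through the GRCm38.p6 gene table, which gave symbols to 12036 of the 18243 genes tested, and 144 of the 189 named genes had a promoter row.

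The genes named were the 15 highest and 15 lowest measured differences outside the classic lists, the 5 highest bounds each way, up to 4 called members of each list by smallest p, and 14 fixed genes; others are said to be chosen after their values were seen. Ch25h, also fixed, was not among the genes tested, and some genes that meet these rules are not reported here. The members and lists were chosen with earlier results of these data known. The fit was tested on simulated data. Alternatives covered scaling, background correction, the deposited value table, the filter, probe choice, the block, all 12 arrays and each array or slide left out.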

Additional observations from a re-analysis of the deposited data

How the results depend on the processing

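The number of calls moved with the fit far more than the direction of single genes did. Against 4556 calls (2384 higher and 2172 lower), the fit without the replicate block gave 2531 calls, 1509 higher and 1022 lower. All 12 arrays gave 1537 calls with the block (1036 higher, 501 lower) and 1112 without it (788 higher, 324 lower). Without the filter on dim probes 1945 genes were called, 1311 higher and 634 lower. Normexp background correction, run on the median signal because no mean signal column was found, gave 7834 calls, 5262 of them higher. Scaling to the array median called 3849 lower and scaling to the spike-ins 1251 higher. Leaving out 1 slide gave 2272 to 3488 calls, 1410 to 2014 higher and 862 to 1474 lower, smallest without slide 2. Leaving out 1 array without the block gave 1203 to 2109 calls, 867 to 1347 higher and 336 to 762 lower. The cause was not tested, apart from the smaller number of arrays.

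Of the 187 named genes called, 164 were called without each slide in turn, 167 without the block, 180 with normexp and 94 under each of the 24 settings. Among these settings was a fit of only the probes above background on all 6 arrays. It held 155 of the 189 named genes, and none of the 155 lost its call there. A gene absent from that fit counted as not called, so that 94 does not count lost calls alone. Normexp turned the sign of P2ry12 (0.0012), Slc2a3 (0.15), Npas2 (0.011) and Hs3st1 (0.12), none of them called there. The 75th percentile relative to the spike-ins was 1.33 ± 0.156 in LPS and 1.58 ± 0.148 in untreated arrays (SD, n = 3, log2; exact permutation test, two-sided, p = 0.2, smallest possible 0.1). With 3 arrays per group, genes below background have bounds only.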

Other observations

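For 2 of the 4697 tested genes with more than 1 tested probe, different probes were called in opposite directions: Zfp975, with a difference of 2.17 for its brightest probe, and BC037041, with 0.54. Of the 6140 genes whose groups did not overlap, 3144 were higher in LPS and 2996 lower, and 6956 genes had an unadjusted limma p under 0.05. The 4556 called genes had the same sign on all 3 slides.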
